A study of Mus musculus with 23 samples.

Results

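The diet effect common to intact and castrated mice was measured by RNA-seq of the ventral prostate in C57BL/6J mice, an inbred laboratory strain. All 23 of the 23 labelled libraries of the series entered: 12 from mice on a folic acid-enriched diet (24 mg per kg) and 11 from mice on a control diet (4 mg per kg), each diet given from in utero onwards. Every gene of the table was eligible, and 13412 of 20308 gene symbols had enough counts to be tested. The effect of a gene is the equal-weight mean of 3 differences between diets, taken in intact mice, 3 d after castration and 10 d after castration.

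Intact glands were taken at 7 weeks of age, and other mice were castrated at that age and their glands taken 3 or 10 d later. The folic acid diet had 4 libraries in each of the 3 states, and the control diet had 4 in each state but 3 d, where it had 3. No sham-operated group is described, and glands of castrated mice came from animals some days older. Both diets contained folic acid, so the comparison is of an enriched with a supplied diet and not with a deficient one. Each library is treated as a separate mouse. Litters are not named, and with a diet that starts in utero littermates have the same diet, so effects of litter and of diet cannot be told apart. The p-values treat the libraries as independent.

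Folic acid is the synthetic form of folate, the vitamin that carries single-carbon units for the synthesis of thymidylate, purines and methionine. Methionine is the source of S-adenosylmethionine, the methyl donor for DNA and histones, which also feeds polyamine synthesis. The ventral prostate is an androgen-dependent gland whose luminal epithelium secretes large amounts of protein and polyamines, and it regresses when testicular androgens are removed.

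Total expected counts per library ranged from 6.38 to 15.6 M. They were lower on the folic acid diet by 1.26 M on average over states, which did not pass a two-sided exact permutation test (p = 0.189). Sbp, the spermine-binding protein of ventral prostate secretion, took 4.78% to 59.8% of counts on the folic acid diet and 6.24% to 52.8% on the control diet. The mean difference over states was 3.19 percentage points (two-sided exact permutation p = 0.0527). Of the luminal epithelial markers 14 of 14 passed the filter on low counts, and their summed level was 4848 to 6417 CPM on the folic acid diet and 4524 to 7412 CPM on the control diet. Of 8 seminal vesicle markers 0 passed the filter. Levels are given as CPM, the counts of a gene relative to the TMM-scaled library total, which sets the bulk of genes level between libraries. Because Sbp fills so much of a library, levels are to be read relative to that bulk. Of the libraries, control intact replicate 2 stood apart by its skeletal muscle markers (summed level 5620 CPM, against 77.5 to 216 CPM in the intact mice on the folic acid diet and 116 to 198 CPM in the other intact mice on the control diet). Earlier results of these data also set apart folic acid intact replicate 3 (12177 genes detected, the fewest of the 23), folic acid 10 d replicate 3 (12620 genes detected, the fewest at 10 d) and folic acid 10 d replicate 2 (an Sbp share of 4.78%, the lowest of the 23). Folic acid 3 d replicate 3 had 12522 genes detected, the fewest at 3 d, and was not among those set apart.

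The first question was which transcripts differed between the diets in the mean over the 3 states, a test that does not require the same change in each state. Of 13412 genes tested 47 were called, that is, had a Benjamini-Hochberg adjusted p under 0.05 in edgeR's quasi-likelihood test (0.35%). Of these, 41 were lower on the folic acid diet (0.306% of genes tested) and 6 were higher (0.0447%). An unadjusted p under 0.05 was seen for 944 genes (7.04%), 479 higher (3.57%) and 465 lower (3.47%). The 41 lower genes had log2 fold changes (folic acid minus control) from -0.40 to -2.41 with a median of -0.90, and 17 were past -1. The 6 higher genes ranged from 0.48 to 1.27. Over all genes the median was -0.01 and the 5th and 95th percentiles were -0.60 and 0.58. Among the 8735 genes whose mean log2 CPM was 3 or more, the 95% interval of the diet effect lay within 1 log2 unit either way for 8524 (97.6%). Leaving out the 4 libraries that stood apart gave 48 called genes, 41 of them among the 47. Without the 3 d state 20 genes were called and without the 10 d state 29, and DESeq2 called 83.

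**Figure D1:**
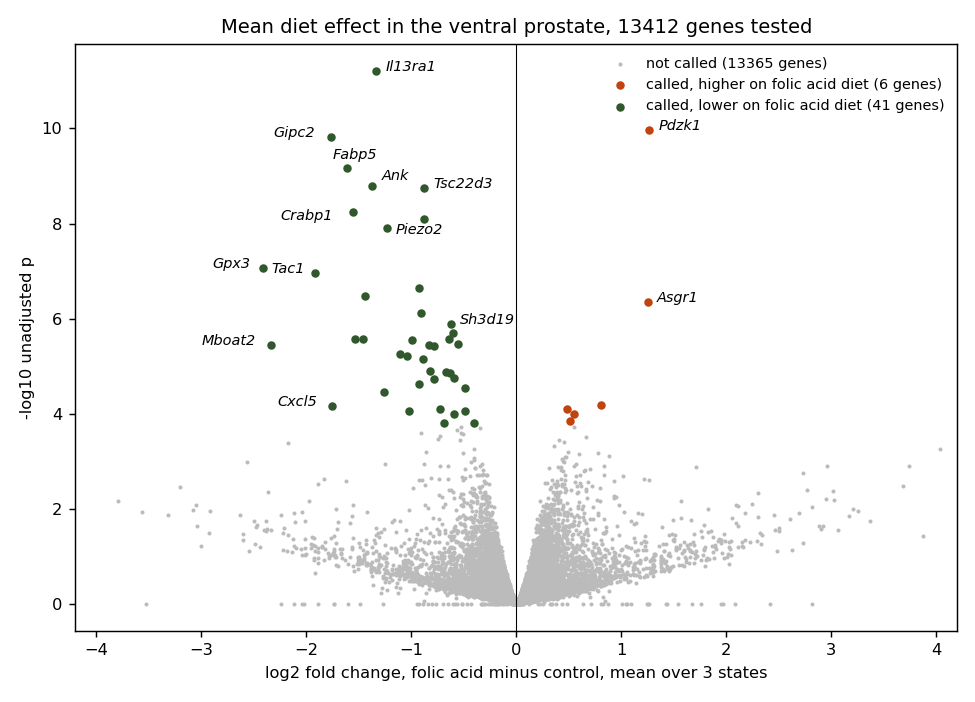
Mean diet effect of each gene: log2 fold change, folic acid minus control, on the x axis and -log10 of the unadjusted p on the y axis. The 41 genes called lower lie left of 0 and the 6 called higher lie right of it, and 7 genes that were not called lie beyond the x axis.

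Promoter sequences are shown for the genes with the smallest p in each direction, Il13ra1 (lower) and Pdzk1 (higher), and for a pair of neighbouring genes on chromosome 3 that were lower together, Glt28d2 and Sh3d19. They are given because folate feeds DNA methylation, which in mammals falls mainly on CpG dinucleotides. Each runs 5′ to 3′ on the gene's strand, from 250 bases before to 50 after the RefSeq start (GRCm38.p6), with each CpG in capitals. The window is chrX:36111858-36112157 (plus strand) for Il13ra1, chr3:96829815-96830114 (plus) for Pdzk1, chr3:85887469-85887768 (minus) for Glt28d2 and chr3:85970868-85971167 (plus) for Sh3d19.
Il13ra1: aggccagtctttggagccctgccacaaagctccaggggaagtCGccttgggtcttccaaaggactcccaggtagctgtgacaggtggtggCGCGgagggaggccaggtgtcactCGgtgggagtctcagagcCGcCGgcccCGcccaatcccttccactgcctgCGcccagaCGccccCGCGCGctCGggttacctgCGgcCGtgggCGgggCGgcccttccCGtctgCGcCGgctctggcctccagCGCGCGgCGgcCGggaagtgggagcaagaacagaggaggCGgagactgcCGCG
Pdzk1: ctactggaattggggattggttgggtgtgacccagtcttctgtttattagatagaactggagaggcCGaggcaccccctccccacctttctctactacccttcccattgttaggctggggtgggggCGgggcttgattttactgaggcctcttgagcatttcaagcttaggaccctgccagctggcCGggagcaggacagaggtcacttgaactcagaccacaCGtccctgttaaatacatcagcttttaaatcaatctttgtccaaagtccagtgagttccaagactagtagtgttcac
Glt28d2: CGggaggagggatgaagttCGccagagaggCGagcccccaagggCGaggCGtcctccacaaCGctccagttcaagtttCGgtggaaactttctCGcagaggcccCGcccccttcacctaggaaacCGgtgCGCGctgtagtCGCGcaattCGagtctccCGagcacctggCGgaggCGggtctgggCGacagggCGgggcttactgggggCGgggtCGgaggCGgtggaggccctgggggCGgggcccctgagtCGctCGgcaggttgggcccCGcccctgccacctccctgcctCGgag
Sh3d19: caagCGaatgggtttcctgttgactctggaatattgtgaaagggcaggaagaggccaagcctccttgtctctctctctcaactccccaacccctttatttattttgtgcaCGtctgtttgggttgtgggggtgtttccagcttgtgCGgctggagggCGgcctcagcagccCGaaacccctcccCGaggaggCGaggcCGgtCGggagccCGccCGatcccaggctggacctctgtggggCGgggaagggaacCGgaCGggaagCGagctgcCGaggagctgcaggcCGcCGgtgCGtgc
The Il13ra1 window holds 28 CpG, that of Pdzk1 4, that of Glt28d2 28 and that of Sh3d19 19. Methylation was not measured in this series, and these windows describe sequence only. RefSeq promoters were matched for 39 of the 47 called genes and 10731 of the genes tested. The median was 19 CpG per window for the called genes, with a range of 3 to 54, and 20 for all tested genes matched. Median GC content was 62.0% and 60.7%. The steroid receptor half-site AGAACA, searched on both strands, was in 4 called promoters (10.3%) and in 12.4% of all matched ones. The STAT motif TTCNNNGAA was in 4 (10.3%) and in 6.77%, and the E-box CACGTG in 3 (7.69%) and in 10.1%. AGAACA was found in the windows of Il13ra1, Tsc22d3, Gpx3 and 5430419D17Rik.

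The diets were separated across all 23 libraries, whatever the state, by 3 genes: each library on the folic acid diet was below each library on the control diet for Il13ra1, Gpx3 and Chn1 (3 of 13412 genes, 0.0224%). Il13ra1 encodes a receptor subunit for interleukin-13 and, with the interleukin-4 receptor, for interleukin-4 (chromosome X, 36112110 to 36171259, GRCm38). In intact mice its level was 20.8, 18.03, 11.7 and 21.5 CPM on the folic acid diet, against 106, 55.4, 82.1 and 69.7 CPM on the control diet. The 3 d levels were 38.6, 26.2, 29.0 and 43.0 CPM, against 94.6, 55.6 and 76.7 CPM on the control diet. The 10 d levels were 43.9, 37.7, 45.9 and 50.3 CPM, against 69.4, 84.4, 57.4 and 84.9 CPM on the control diet. The lowest control library thus stood above the highest library on the folic acid diet. The log2 fold change was -1.33 ± 0.13 (SE, adjusted p = 8.16e-08), made of -2.12 in intact mice, -1.14 at 3 d and -0.74 at 10 d. The diet by state interaction of Il13ra1 was not called in edgeR's quasi-likelihood test (adjusted p = 0.442).

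Gpx3, the secreted selenium-dependent glutathione peroxidase of plasma (chromosome 11, 54902453 to 54910377), had the largest fold change of the 47. In intact mice it was at 38.0, 26.8, 12.2 and 36.4 CPM on the folic acid diet, against 187, 225, 556 and 289.9 CPM on the control diet. At 3 d the levels were 12.1, 14.1, 7.33 and 23.7 CPM, against 185, 75.4 and 90.2 CPM on the control diet. At 10 d they were 42.0, 31.4, 10.5 and 32.7 CPM, against 47.5, 46.5, 57.8 and 43.9 CPM on the control diet, so that the gap between the diets was narrow there. Its log2 fold change was -2.41 ± 0.28 (adjusted p = 0.000116), with -3.47, -3.02 and -0.74 in intact mice, at 3 d and at 10 d. Of the 30 tested genes of the antioxidant and glutathione list, Gpx3 was the single one called (0 higher, 1 lower), and the list's median was -0.02. Over all genes 0.35% were called. At an unadjusted p under 0.05, 3 members were higher (10%, against 3.57% of all genes) and 4 lower, Gpx3 included (13.3%, against 3.47%).

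Chn1, a chimaerin that switches off the GTPase Rac (chromosome 2, 73610660 to 73775346), was low in every library. It stood at 0.123 to 6.80 CPM on the folic acid diet (median 4.10) and at 7.36 to 12.2 CPM on the control diet (median 10.0). Within intact mice the levels were 0.123, 4.25, 1.53 and 0.628 CPM on the folic acid diet, against 9.89, 7.36, 11.7 and 9.53 CPM on the control diet. Chn1 had a log2 fold change of -1.54 ± 0.27 (adjusted p = 0.00177). By state the values were -2.50 in intact mice, -1.18 at 3 d and -0.94 at 10 d.

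**Figure D2:**
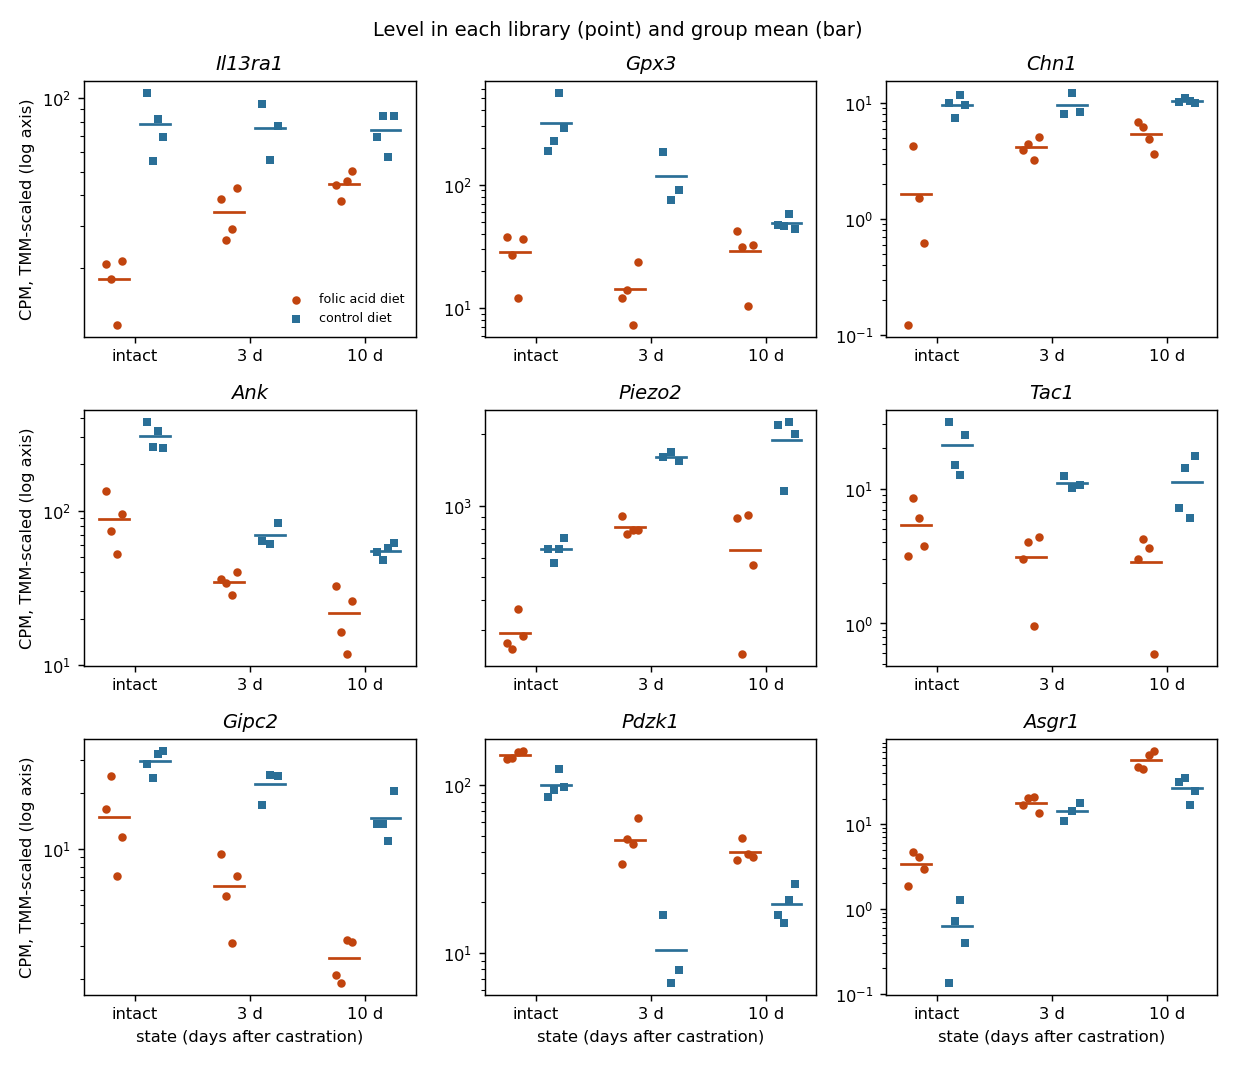
Level of 9 called genes in each library, as TMM-scaled CPM on a log axis, by state; circles are libraries on the folic acid diet, squares libraries on the control diet, and bars the group means. Il13ra1, Gpx3 and Chn1 show no overlap between diets in any state, and Pdzk1 and Asgr1 lie higher on the folic acid diet.

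Within each state separately, 11 of the 47 genes showed no overlap between the diets in all 3 states, 20 in exactly 2, 14 in exactly 1 and 2 in none. Over all genes tested, 11 were lower without overlap in all 3 states (0.082%) and 1 was higher (0.00746%), and in at least 2 states 59 were lower (0.44%) and 19 higher (0.142%). The single gene higher in all 3 states was Pdzk1. Apart from the genes above, those called lower without overlap in each state were Ank, Piezo2, Tac1, 5430419D17Rik, Sema3d, Mboat2 and Vav3. Prkar2b, a regulatory subunit of protein kinase A, was lower without overlap in each state too but was not called (log2 fold change -0.40, adjusted p = 0.156); it was named after its values were seen.

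Pdzk1 encodes a scaffold with PDZ domains that holds transporters and the scavenger receptor SR-BI at the cell membrane (chromosome 3, 96829284 to 96870926). In intact mice its level was 143, 145, 158 and 160.4 CPM on the folic acid diet, against 85.6, 93.4, 125 and 98.0 CPM on the control diet. After 3 d it was 33.8, 47.6, 44.7 and 63.7 CPM, against 16.7, 6.60 and 7.87 CPM on the control diet, and this was the state with the widest gap. After 10 d it was 35.8, 48.5, 39.2 and 37.2 CPM, against 16.9, 15.1, 20.7 and 25.9 CPM on the control diet. Pdzk1 had a log2 fold change of 1.27 ± 0.13 (adjusted p = 6.7e-07), with 0.59, 2.18 and 1.03 in the 3 states. Its level was lower after castration on both diets, with a mean over diets of -2.13 at 10 d against intact.

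Gipc2, another PDZ-domain adaptor, moved the other way (chromosome 3, 152093533 to 152166230). It ranged from 1.89 to 24.6 CPM on the folic acid diet (median 6.35) and from 11.0 to 33.6 CPM on the control diet (median 24.0). At 10 d the libraries on the folic acid diet had 2.10, 1.89, 3.23 and 3.13 CPM, against 13.6, 13.5, 11.0 and 20.4 CPM on the control diet. The groups did not overlap at 3 d and 10 d, and in intact mice the highest library on the folic acid diet (24.6 CPM) was above the lowest on the control diet (24.0 CPM). Gipc2 had a log2 fold change of -1.76 ± 0.19 (adjusted p = 6.7e-07), with -0.98, -1.81 and -2.51 in the 3 states. In the list of PDZ scaffolds and the transporters they hold, 17 members were tested, of which Pdzk1 was called higher and Gipc2 lower. Over all genes 0.35% were called. The list's median was -0.05. Both genes were named in advance and the list was written with earlier results of these data known, so this count is a description.

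The other genes called higher were Asgr1, Tmem191c, Papss2, Slc6a2 and Gpr155. Asgr1, a subunit of the asialoglycoprotein receptor that clears desialylated glycoproteins in liver (chromosome 11, 70054085 to 70057894), had 1.84, 4.71, 4.07 and 2.93 CPM in intact mice on the folic acid diet, against 0.134, 0.724, 1.28 and 0.397 CPM on the control diet. At 3 d the diets overlapped, with 16.8, 20.5, 20.8 and 13.5 CPM on the folic acid diet and 11.0, 14.4 and 17.9 CPM on the control diet. At 10 d they did not, with 46.5, 44.7, 65.3 and 72.9 CPM on the folic acid diet and 31.1, 35.2, 16.8 and 24.5 CPM on the control diet. Its log2 fold change was 1.25 ± 0.20 (adjusted p = 0.00043). Tmem191c, a predicted membrane protein, had a log2 fold change of 0.81 ± 0.18 (adjusted p = 0.0233) and levels of 14.6 to 42.7 CPM on the folic acid diet and 9.11 to 24.3 CPM on the control diet. Papss2, which makes the sulfate donor PAPS, stood at 0.48 ± 0.11 (adjusted p = 0.0266), with an intact value of 0.04 and values of 0.61 and 0.79 at 3 d and 10 d. Slc6a2, the noradrenaline transporter, stood at 0.55 ± 0.12 (adjusted p = 0.0308), with 0.21 in intact mice, 0.25 at 3 d and 1.19 at 10 d, and its diets overlapped in each state. Gpr155, a lysosomal cholesterol-sensing protein, stood at 0.51 ± 0.12 (adjusted p = 0.0427). At 3 d Gpr155 had 158, 169, 164 and 109.9 CPM on the folic acid diet, against 65.7, 47.0 and 78.1 CPM on the control diet, while the diets overlapped in the other states. Tmem191c, Papss2, Slc6a2 and Gpr155 each lost the call without some single library.

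The genes called lower are described next by what each is known to do, an order chosen after their values were seen and not tested as groups. Fabp5, a cytosolic fatty acid-binding protein (chromosome 3, 10012548 to 10016607), had 65.7, 95.1, 113 and 65.7 CPM in intact mice on the folic acid diet, against 92.2, 60.4, 95.1 and 106 CPM on the control diet, and the diets overlapped. After castration they did not: at 3 d it had 104, 166, 149 and 76.7 CPM on the folic acid diet, against 534, 445 and 397 CPM on the control diet. Levels at 10 d were 208, 71.3, 188 and 211 CPM, against 1212, 1369, 1052 and 1434 CPM on the control diet. The mean log2 fold change was -1.62 ± 0.16 (adjusted p = 2.28e-06), with -0.06 in intact mice, -1.89 at 3 d and -2.90 at 10 d. Fabp5 was the single gene called for the diet by state interaction (1 of 13412, 0.00746%, adjusted p = 0.0112), and the interaction was not called without folic acid intact replicate 2 or control 10 d replicate 2. Its mean effect rests on the castrated states. Fabp5 has close copies in the genome, and the estimate divides their shared reads.

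Crabp1, a cytosolic retinoic acid-binding protein (chromosome 9, 54764748 to 54773110), followed a like order of states. Its level was 137, 196, 174 and 114 CPM in intact mice on the folic acid diet, against 210.0, 198, 192 and 190.2 CPM on the control diet. Levels at 10 d were 2.10, 1.26, 5.13 and 3.73 CPM, against 19.5, 19.4, 20.6 and 29.5 CPM on the control diet. The log2 fold changes were -0.35, -1.42 and -2.90, with a mean of -1.55 ± 0.18 (adjusted p = 1.12e-05) and an interaction that did not pass (adjusted p = 0.0851). Soat1, the enzyme that esterifies cholesterol in the endoplasmic reticulum, was at 12.6 to 45.7 CPM on the folic acid diet and at 36.5 to 92.3 CPM on the control diet. Its log2 fold change was -0.92 ± 0.14 (adjusted p = 0.000256), with -0.81, -1.05 and -0.90 in the 3 states. Mboat2, a lysophospholipid acyltransferase, was at 0 to 5.02 CPM on the folic acid diet and 4.19 to 9.08 CPM on the control diet, with a log2 fold change of -2.34 ± 0.42 (adjusted p = 0.00197). Eci3, an enoyl-CoA isomerase with a close relative in Eci2, was the single called gene whose sign was not the same in all states: 0.18 in intact mice, -1.41 at 3 d and -1.83 at 10 d.

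Of the cholesterol and fatty acid synthesis list none of 37 tested members was called, 31 were below 0 and the median was -0.18. An unadjusted p under 0.05 was seen for 6 lower and 0 higher members (16.2% lower, against 3.47% of all genes). The list's medians were 0.03, -0.18 and -0.39 in intact mice, at 3 d and at 10 d.

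Ank, Piezo2, Slc4a4 and Slc39a8 encode membrane transport or channel proteins. Ank, a membrane protein of pyrophosphate and citrate export (chromosome 15, 27466677 to 27594909), had 134, 74.1, 52.6 and 95.2 CPM in intact mice on the folic acid diet, against 376, 259, 330.1 and 253 CPM on the control diet. Ank levels at 3 d were 35.9, 34.2, 28.5 and 40.0 CPM, against 63.7, 61.2 and 82.9 CPM on the control diet. Ank levels at 10 d were 32.5, 16.4, 11.8 and 25.9 CPM, against 54.3, 47.9, 56.9 and 61.5 CPM on the control diet. The diets did not overlap in any state, and the log2 fold change was -1.37 ± 0.15 (adjusted p = 4.08e-06), with -1.77, -0.998 and -1.34. Piezo2, a mechanically gated cation channel (chromosome 18, 63010213 to 63387183), had 264, 249.6, 368 and 284 CPM in intact mice on the folic acid diet, against 659.5, 572, 659 and 735 CPM on the control diet. Piezo2 levels at 3 d were 905, 763, 789 and 789 CPM, against 1598, 1679 and 1546 CPM on the control diet, and at 10 d 884, 238, 912 and 565 CPM, against 2174, 1157, 2251 and 1998 CPM on the control diet. Its diets did not overlap within any state either, and the log2 fold change was -1.23 ± 0.15 (adjusted p = 1.85e-05). Slc4a4, a sodium bicarbonate cotransporter, was lower by a log2 fold change of -0.79 ± 0.16 (adjusted p = 0.00744). Slc39a8, a zinc and manganese importer, stood at -0.49 ± 0.10 (adjusted p = 0.0109), with -0.31 in intact mice, -0.12 at 3 d and -1.03 at 10 d. It lost the call without control 3 d replicate 3 (adjusted p = 0.0502).

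Tac1, the precursor of the neuropeptides substance P and neurokinin A (chromosome 6, 7554879 to 7565834), had 3.19, 8.501, 6.11 and 3.77 CPM in intact mice on the folic acid diet, against 31.4, 15.1, 12.6 and 24.9 CPM on the control diet. At 3 d it had 2.99, 4.05, 0.961 and 4.39 CPM, against 12.4, 10.1 and 10.7 CPM on the control diet, and at 10 d 2.99, 4.25, 3.61 and 0.593 CPM, against 7.21, 14.2, 6.07 and 17.6 CPM on the control diet. Tac1 differed by like amounts in the 3 states, with log2 fold changes of -1.95, -1.82 and -1.98 and a mean of -1.91 ± 0.27 (adjusted p = 0.00013). Memo1, which takes part in ErbB2-driven cell motility (chromosome 17, 74199036 to 74295521), was at 35.8 to 135 CPM on the folic acid diet and at 40.6 to 364 CPM on the control diet, with a log2 fold change of -0.87 ± 0.11 (adjusted p = 1.36e-05). Its diets overlapped in intact mice and not at 3 d or 10 d. Sema3d, a secreted semaphorin of axon and vessel guidance, stood at -1.46 ± 0.25 (adjusted p = 0.00177), and was at 0 to 10.8 CPM on the folic acid diet and 3.87 to 27.1 CPM on the control diet. Vav3, an exchange factor that activates Rac, stood at -1.11 ± 0.20 (adjusted p = 0.0028), Stc2, a secreted stanniocalcin, at -0.996 ± 0.17, and Rgs2, a brake on G-protein signalling, at -0.78 ± 0.14 (adjusted p = 0.00177 for Stc2 and 0.00197 for Rgs2). Stat5a, a transcription factor downstream of prolactin and cytokine receptors, stood at -0.83 ± 0.15 (adjusted p = 0.00197), with -0.69, -1.54 and -0.26 in the 3 states.

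Il13ra1 was the single gene called of the 10 tested in the type 2 cytokine list (0.35% of all genes were called). Of the 10, 8 were below 0 (52.1% of all genes were) and the median was -0.52. By state the list's median was nearer to 0, at -0.18 in intact mice, -0.33 at 3 d and 0.07 at 10 d. The other receptor subunit, Il4ra, stood at 0.33 ± 0.57 (SE), Stat6, the transcription factor both receptors use, at 0.01 ± 0.11, and Jak1 at -0.20 ± 0.13, none of them called. Cxcl5, a chemokine that draws neutrophils (chromosome 5, 90759360 to 90761624), was at 9.24, 5.11, 7.57 and 14.95 CPM at 3 d on the folic acid diet, against 41.7, 57.9 and 91.3 CPM on the control diet. At 10 d it was at 225, 68.7, 226 and 115 CPM, against 448, 892, 456 and 291 CPM on the control diet, while in intact mice no library was above 2.004 CPM. Its log2 fold change was -1.76 ± 0.34 (adjusted p = 0.0239), and 8 single libraries could each be left out to lose the call. In the list of genes known to rise after castration 23 were tested, of which Asgr1 was called higher and Cxcl5 lower (0.35% of all genes were called). The median was -0.07.

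Tsc22d3, the glucocorticoid-induced leucine zipper and a gene that androgens raise too (chromosome X, 140539528 to 140600659), was lower. It had 117, 167, 111 and 105 CPM in intact mice on the folic acid diet, against 258, 253, 291 and 215 CPM on the control diet. At 3 d it had 55.2, 45.5, 41.9 and 51.1 CPM, against 99.7, 102 and 96.99 CPM on the control diet. At 10 d the diets overlapped, with 64.2, 59.1, 87.1 and 90.1 CPM on the folic acid diet and 141, 88.8, 85.0 and 133 CPM on the control diet. The log2 fold change was -0.88 ± 0.11 (adjusted p = 4.08e-06). Other glucocorticoid-responsive genes were not called, with Fkbp5 at 0.06 ± 0.12, Sgk1 at 0.01 ± 0.12, Per1 at 0.11 ± 0.18 and Klf9 at 0.22 ± 0.11. Of the 23 tested members of the list, Tsc22d3 included, 19 were above 0 (47.9% of all genes were) and the median was 0.20. By state the list's median was -0.06 in intact mice, 0.28 at 3 d and 0.09 at 10 d.

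Fosl2, an AP-1 subunit, was lower by -0.64 ± 0.11 on the log2 scale (adjusted p = 0.00177), while 14 of the 23 tested immediate-early genes were above 0 and Jun, Fos and Ier2 stood at 0.64, 0.85 and 0.27 without passing. Nfil3, a repressor in the output of the circadian clock, stood at -0.69 ± 0.16 (adjusted p = 0.0448), as the single called gene of 18 tested clock genes (0.35% of all genes were called). Bcl11a, a zinc-finger repressor, stood at -0.60 ± 0.13 (adjusted p = 0.0308), and like Nfil3 lost its call without any of several libraries. Rev3l, the catalytic subunit of the translesion DNA polymerase zeta, had 42.3 to 86.7 CPM on the folic acid diet and 57.1 to 122 CPM on the control diet, with a log2 fold change of -0.61 ± 0.10 (adjusted p = 0.00156). Cnot8, a subunit of the deadenylase that shortens mRNA tails, stood at -0.55 ± 0.10 (adjusted p = 0.00197).

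5430419D17Rik, listed by RefSeq as Cdcp3 (chromosome 7, 131174402 to 131306451), was among the genes without overlap in any state, and since unnamed genes were left out of the rule for naming it was added after its values were seen. It had 1149, 1022, 992 and 1503 CPM in intact mice on the folic acid diet, against 2630.3, 2633, 2116 and 1908 CPM on the control diet. At 10 d it had 55.3, 10.1, 51.2 and 26.4 CPM, against 133, 99.3, 173 and 149.9 CPM on the control diet. The log2 fold change was -1.44 ± 0.20 (adjusted p = 0.000338).

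Col6a3, a chain of the microfibrillar collagen VI, had 359, 364, 394 and 368 CPM in intact mice on the folic acid diet, against 873, 592, 845 and 1126 CPM on the control diet. Col6a3 levels at 3 d were 343, 379, 404 and 264 CPM, against 737, 998 and 639 CPM on the control diet. At 10 d the diets overlapped, with 580.0, 84.5, 462 and 243 CPM on the folic acid diet and 1019.7, 445, 1111 and 1021 CPM on the control diet. Its log2 fold change was -1.26 ± 0.23 (adjusted p = 0.0129). None of the 24 tested genes of the fibroblast and matrix marker list was called, but 22 were below 0 and the median was -0.33, against 52.1% below 0 and a median of -0.01 over all genes. By state that median was -0.47 in intact mice, -1.08 at 3 d and 0.49 at 10 d, so its direction turned, whereas Col6a3 stood at -1.21, -1.19 and -1.39. The summed level of the list was 417 to 1731, 469 to 1189 and 547 to 1696 CPM on the folic acid diet in intact mice, at 3 d and at 10 d, and 1178 to 1955, 1073 to 2089 and 603 to 1136 CPM on the control diet. The part of fibroblast content in the difference of Col6a3 was not tested, and in whole tissue fewer cells of a type and less RNA per cell cannot be told apart. Smooth muscle, endothelial, basal and macrophage markers had 0 called genes of 16, 15, 12 and 20 tested, with medians of -0.12, -0.04, -0.12 and -0.07. These medians turned by state too: in intact mice, at 3 d and at 10 d they were -0.33, -0.32 and 0.39 for smooth muscle, -0.43, -0.48 and 0.65 for endothelial and -0.18, -0.56 and 0.39 for basal markers. Summed smooth muscle, endothelial and basal levels overlapped between the diets in each state. At 10 d the highest sums were all in folic acid 10 d replicate 2 (4139, 148 and 631 CPM). In intact mice the lowest smooth muscle and endothelial sums were in folic acid intact replicate 3 (831 and 13.2 CPM). Macrophage markers had a median of -0.65 at 3 d and 0.34 at 10 d. MHC class II genes were above 0 in 7 of 7 tested, none called, with a median of 0.35.

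The lists nearest to the diet itself are small beside a share of 0.35% called over all genes, so a count of 0 in them is near the background. Of the folate and one-carbon list 24 genes were tested, of which 0 were called, 18 were below 0 (52.1% of all genes were) and the median was -0.10. Shmt2, the mitochondrial serine hydroxymethyltransferase, stood at 0.17 ± 0.15 (SE) and Tyms, the thymidylate synthase, at 0.07 ± 0.14. Mthfd1l, a mitochondrial formate-producing enzyme, had the smallest p (log2 fold change -0.60, unadjusted p = 0.0287, adjusted p = 0.624). Folate carriers and receptors gave 0 of 11, with Slc46a1, the proton-coupled folate transporter, at 0.24 ± 0.20 and Slc19a1, the reduced folate carrier, at -0.24 ± 0.21. Folr1, the folate receptor, was not tested because it had a count in only 2 libraries, both on the control diet at 10 d. The methionine and transsulfuration list gave 0 of 21, with Mat2a, which makes S-adenosylmethionine, at 0.32 ± 0.10 (adjusted p = 0.296). At an unadjusted p under 0.05, 4 of its members were higher (19%, against 3.57% of all genes) and 0 lower. Of the genes of DNA methylation and its removal 0 of 18 were called and the median was 0.08: Dnmt1 stood at -0.04 ± 0.14, with a 95% interval from -0.32 to 0.24, and Dnmt3a at 0.12 ± 0.11.

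**Figure D3:**
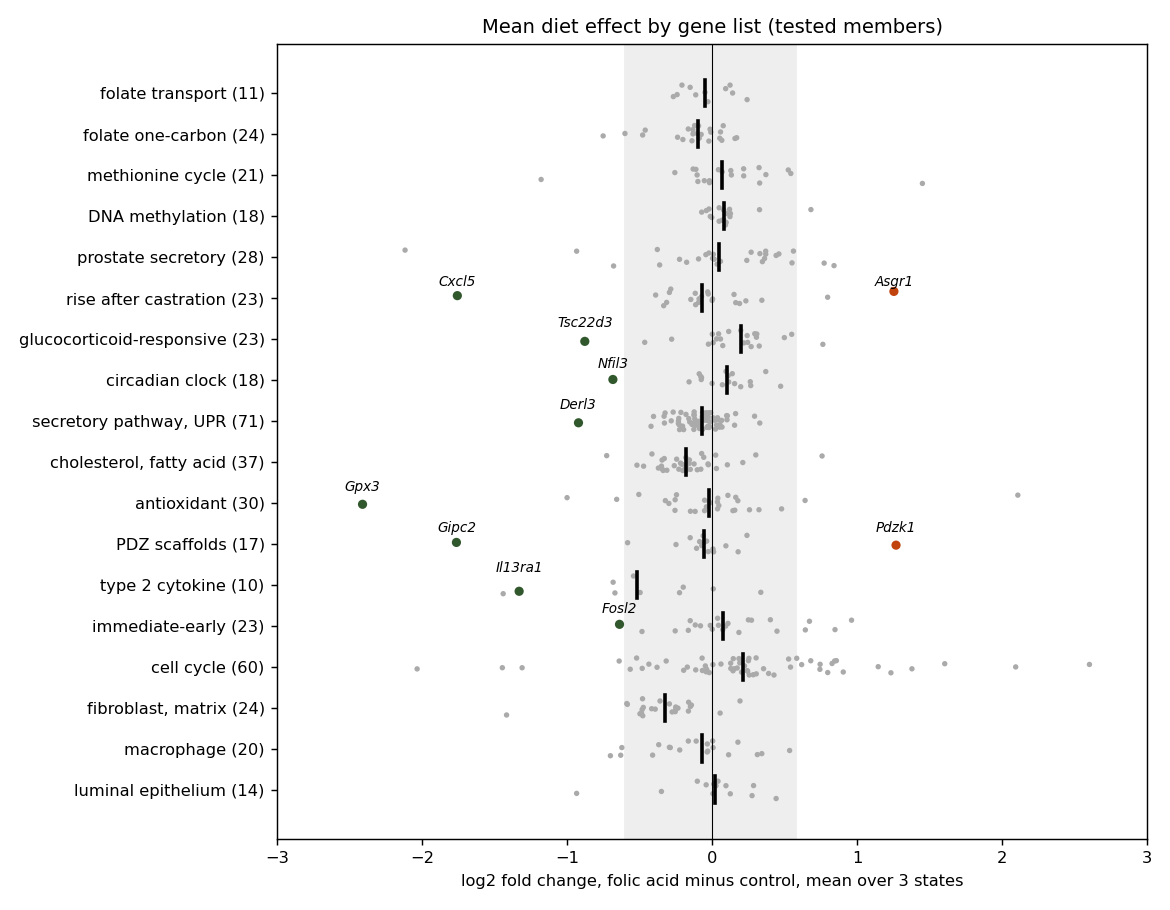
Log2 fold change, folic acid minus control, of the tested members of 18 gene lists (number tested in parentheses); large coloured points are called genes, the black bar is the list's median and the grey band spans the 5th to 95th percentile of all genes, -0.60 to 0.58. No list holds more than 2 called members, and the medians of the 18 lists lie between -0.52 and 0.21.

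Secretory and androgen-driven genes are also to be read against 0.35% called over all genes. Of the prostate secretory list 0 of 28 tested genes were called and the median was 0.05. At an unadjusted p under 0.05, 5 of them were higher (17.9%, against 3.57% of all genes) and 2 lower (7.14%, against 3.47%). Luminal markers had 0 of 14 called, with 3 higher (21.4%) and 0 lower at that unadjusted threshold. Spink3, a secreted protease inhibitor, stood at 0.46 ± 0.15 (adjusted p = 0.312), Pbsn, probasin, at -0.94 ± 0.65 and Sbp at 0.35 ± 0.18. Pbsn varied widely within a group. In intact mice it had 170, 26.9, 217 and 512 CPM on the folic acid diet, against 6.55, 160, 2812 and 1266.5 CPM on the control diet. In the list of secretory pathway and unfolded protein response genes 1 of 71 was called, Derl3, which takes part in degrading misfolded proteins of the endoplasmic reticulum. Derl3 had 26.4, 38.6, 17.1 and 23.4 CPM in intact mice on the folic acid diet, against 49.7, 57.9, 64.9 and 58.7 CPM on the control diet. After castration every library had at most 7.26 CPM, and the diets overlapped at both times. Its log2 fold change was -0.92 ± 0.19 (adjusted p = 0.00942). Of this list 54 genes were below 0 (76.1%, against 52.1% of all genes) with a median of -0.07. At an unadjusted p under 0.05, 10 were lower (14.1%, against 3.47% of all genes), among them Pdia4, Ero1lb, Pdia3, Hyou1 and Manf. At that threshold 1 was higher (1.41%, against 3.57%). By state the list's median was -0.19, 0.08 and -0.10. Cell cycle genes had 0 of 60 called and a median of 0.21, made of 0.65 in intact mice, -0.04 at 3 d and 0.09 at 10 d, with Mki67, a marker of dividing cells, at 0.84 ± 0.44 (adjusted p = 0.735).

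The next comparison asked how even the 47 effects were over the states. Of the 47 genes 46 had the same sign in all 3 states. Within a state the calls were 7 in intact mice (0.0522%), 9 at 3 d (0.0671%) and 16 at 10 d (0.119%), of which 6, 9 and 15 were among the 47. These counts move with single libraries: 3 without folic acid intact replicate 3 and 48 without folic acid intact replicate 4 in intact mice, 2 without folic acid 3 d replicate 2 and 14 without folic acid 10 d replicate 2 at 3 d, and 9 without control 10 d replicate 1 and 24 without folic acid 10 d replicate 1 at 10 d. Of the 47 genes 24 were called in no single state, and 2 genes were called in a single state and not in the mean: Pdia4 in intact mice (log2 fold change -0.78, adjusted p = 0.0358) and 9530002B09Rik at 10 d (1.52, adjusted p = 0.00718). The interaction had an unadjusted p under 0.05 for 667 genes (4.97%) and for 17 of the 47. Since the 47 were chosen on the mean of the same 3 differences, these 17 are a description. After Fabp5 and Crabp1, the smallest interaction p-values belonged to genes not called in the mean. Kcnn4, a calcium-activated potassium channel, had 32.7, 46.5, 59.7 and 34.3 CPM in intact mice on the folic acid diet, against 22.7, 18.9, 18.4 and 24.0 CPM on the control diet. At 3 d it was the other way round, with 3.08, 3.56, 6.01 and 5.89 CPM on the folic acid diet and 10.9, 12.9 and 9.02 CPM on the control diet (interaction adjusted p = 0.0969). Ppp1r1b, a phosphatase regulator and marker of proximal luminal cells, stood at 1.06, -0.33 and -0.40, and Slc5a3, the sodium-coupled myo-inositol transporter, at -0.57, 0.51 and 0.83 (interaction adjusted p = 0.243 for both).

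**Figure D4:**
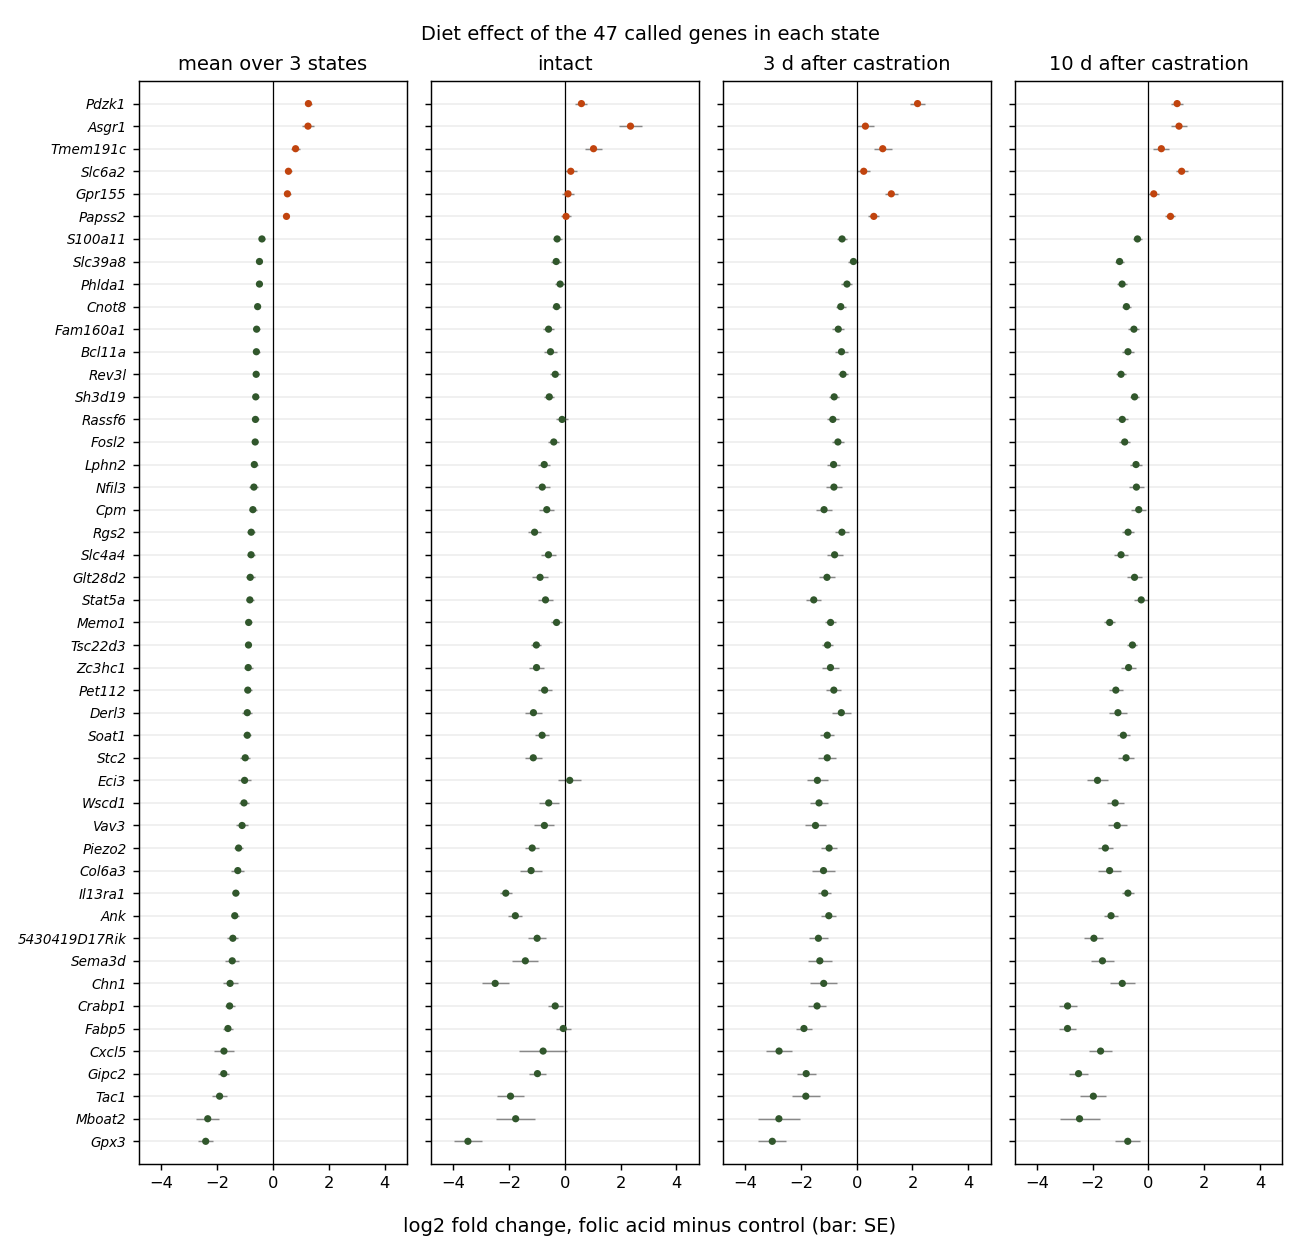
Log2 fold change, folic acid minus control, of the 47 called genes in the mean over 3 states and in each state, with the standard error as a bar; genes run from the highest mean at the top to the lowest. Points of 46 genes lie on the same side of 0 in each state, Eci3 is the exception, and Fabp5 lies at -0.06 and Crabp1 at -0.35 in intact mice while both lie at -2.90 at 10 d.

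The called genes not described above were lower as well: Wscd1 (log2 fold change -1.04), Zc3hc1 (-0.89), Cpm, which encodes carboxypeptidase M (-0.72), Lphn2, a latrophilin receptor now named Adgrl2 (-0.67), Phlda1 (-0.49) and S100a11, a calcium-binding protein (-0.40). Their adjusted p ranged from 0.00309 for Wscd1 to 0.0448 for S100a11, and Cpm, Phlda1 and S100a11 each lost the call without some single library, as did Eci3.

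Castration, taken as the mean over both diets against intact, uses the same libraries as the diet effect, so both are given side by side only. At 3 d castration was called higher for 16 of the 47 genes and lower for 14 (10.9% and 13.3% of all genes), and at 10 d it was called higher for 16 and lower for 16 (16.8% and 16.4%). Among the 41 genes lower on the folic acid diet, 15 were higher and 12 lower at 10 d. Among the 6 genes higher on the folic acid diet, 1 was higher at 10 d (Asgr1, 4.70) and 4 were lower (Pdzk1 -2.13, Papss2 -3.13, Slc6a2 -1.16 and Gpr155 -1.57). Genes lower on the folic acid diet included Fabp5, Memo1, Piezo2 and Fosl2, with castration log2 fold changes at 10 d of 2.42, 2.05, 1.34 and 2.27, and Ank, Crabp1, Tsc22d3 and Derl3, with -2.25, -4.42, -0.96 and -3.28.

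The last comparison concerned where the 47 genes lie in the genome. Positions in GENCODE M21 (GRCm38) were found for 13358 of the tested genes and for all 47 called ones. Chromosome 3 held 11 of the 47 (23.4%), 10 lower and 1 higher, and 650 of the tested genes (4.87%), so that 1.69% of its genes were called, against 0.35% over all genes. Of the 11, 10 lay in a stretch of 66.6 Mb from Pet112 to Gipc2 (85574119 to 152166230), which held 424 tested genes, 2.36% of them called. The stretch was drawn around the called genes, so that share is a description. Among the genes of the stretch that were not called, 8.45% had an unadjusted p under 0.05, against 10.2% on the rest of chromosome 3 and 6.6% on the other chromosomes. Chromosome 11 followed with 7 called genes, chromosome 5 with 5 and chromosome 10 with 4.

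Within the stretch 4 called genes followed one another with no other tested gene between them. Pet112, now Gatb, a subunit of the enzyme that makes mitochondrial glutaminyl-tRNA (85574119 to 85655622), lay 4.4 kb from Fam160a1 (85660061 to 85817291), which lay 52.6 kb from Glt28d2 (85869849 to 85887516), a glycosyltransferase-like gene whose reads may be shared with its relative Alg13, and Sh3d19, an adaptor with SH3 domains (85971109 to 86130526), followed after a further 83.6 kb. Pet112 was at 5.74 to 20.1 CPM on the folic acid diet (median 11.9) and at 19.9 to 30.6 CPM on the control diet (median 22.7), with a log2 fold change of -0.90 ± 0.15 (adjusted p = 0.00068). Sh3d19 had 57.1, 70.9, 50.2 and 85.3 CPM in intact mice on the folic acid diet, against 106, 94.7, 110.4 and 76.7 CPM on the control diet. At 3 d it had 65.1, 80.6, 67.4 and 84.7 CPM, against 128, 130.1 and 133 CPM on the control diet, and at 10 d 77.8, 86.8, 49.4 and 59.99 CPM, against 99.2, 76.7, 107 and 105 CPM on the control diet. The diets of Sh3d19 were apart at 3 d and overlapped in the other states, and its log2 fold change was -0.62 ± 0.10 (adjusted p = 0.00111). Fam160a1 and Glt28d2 stood at -0.59 ± 0.12 (adjusted p = 0.00733) and -0.82 ± 0.16 (adjusted p = 0.00587). The 4 genes were even over states, with log2 fold changes between -0.50 and -1.17.

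The nearest tested genes on either side were not called. Rps3a1, which follows Sh3d19, stood at 0.04 ± 0.17, and Lrba, the next, at -0.08 ± 0.11. Fbxw7, the tested gene before Pet112, stood at 0.23 ± 0.11 (unadjusted p = 0.0503 in edgeR's quasi-likelihood test). Within 3 Mb of Sh3d19 there were 61 tested genes, of which 57 were not called and 5 of those had an unadjusted p under 0.05. Whether overlapping or antisense transcripts share reads with these neighbours cannot be seen, because the strand used for counting is not given in the sources used here. Elsewhere 2 pairs of called genes lay within 0.5 Mb of each other: Chn1 and Gpr155 on chromosome 2 (224.1 kb apart), one lower and one higher, and Cxcl5 and Rassf6 on chromosome 5 (118.7 kb apart), both lower. Rassf6, a Ras-association domain protein, stood at -0.63 ± 0.12 (adjusted p = 0.00603). Over the genome, genes that were not called themselves had an unadjusted p under 0.05 in 15.1% of cases within 0.1 Mb of a called gene (14 of 93), in 9.6% from 0.1 to 0.25 Mb, in 5.56% from 0.25 to 0.5 Mb and in 6.67% at 5 Mb or more.

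**Figure D5:**
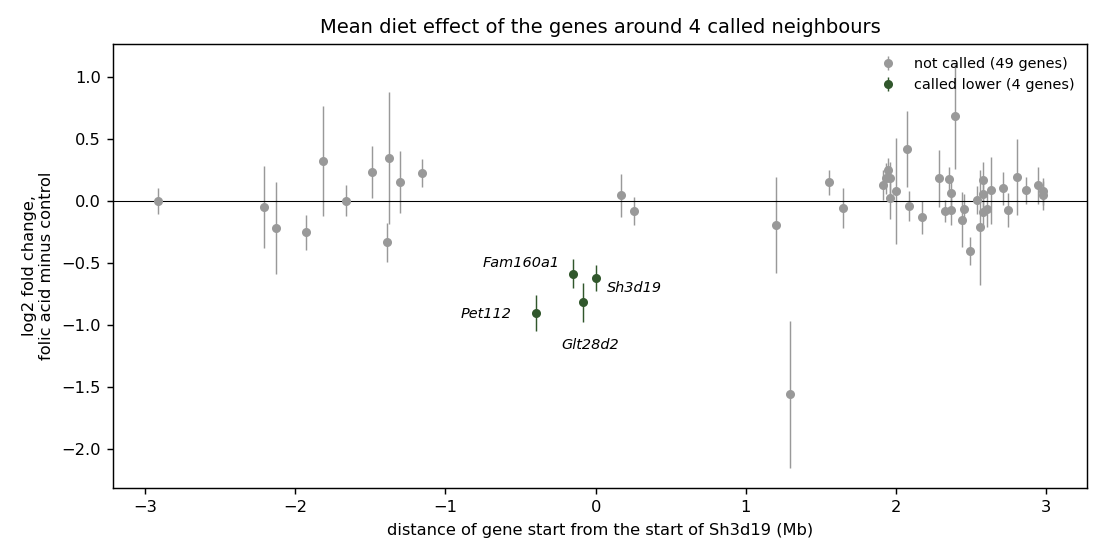
Log2 fold change, folic acid minus control (y axis, with the standard error), of tested genes by the distance of their start from that of Sh3d19 (x axis, Mb), for the 53 genes with a standard error under 0.6. The 4 called genes sit between -0.59 and -0.90 side by side, and the 2 nearest genes on the right sit near 0.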

How the data were processed

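RNA-seq libraries of mouse ventral prostate were deposited by the authors as 1 table of RSEM expected counts per gene symbol. Per the submitters' processing notes, the tools were RSEM 1.2.3, Bowtie 0.12.9 and bcl2fastq 2.17.1.14, with the genome build mm10. For read length, strand setting and annotation, the sources used here give nothing. A single column (1), whose name matches no labelled sample, was left out. Values were rounded to whole numbers, 19.5% of them not being whole as deposited.

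Counts of 20308 symbols were filtered with filterByExpr (minimum count 10, minimum total 15), scaled by TMM (factors 0.553 to 1.69) and fitted in R 4.3.3 with edgeR 4.0.16 as 6 group means in a robust quasi-likelihood model (biological coefficient of variation 0.364, prior degrees of freedom 14.5). The tested contrast was the equal-weight mean of the 3 differences between diets, and the interaction had 2 degrees of freedom. Benjamini-Hochberg adjusted p under 0.05 over 13412 genes was called. Fold changes are log2, folic acid minus control, with standard errors. In simulated data on 13083 genes for the mean diet effect, 84% of 100 genes changed by 1 log2 unit and 35% of 100 changed by 0.5 were recovered, and 4 of 123 calls were false. The changed genes were drawn from those above a minimum mean level, and each had the same change in all states. Recovery of genes at lower levels, or of effects uneven over states, was not measured.

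The genes named were the called genes with the smallest p (up to 15 per direction), up to 4 genes of each of 38 lists with the smallest p, called genes within 0.5 Mb of another, the 5 smallest interaction p-values, and genes named in advance; others were named after their values were seen, and a few genes under this rule are not reported here. The comparison, the genes named in advance and the lists were chosen with earlier results of these data known. Positions are from GENCODE M21 and promoters from RefSeq GRCm38.p6. Sbp shares and totals were compared by an exact permutation of libraries within states. Alternatives were other scalings and filters, a non-robust and an additive fit, a replicate block, limma-voom 3.58.1, DESeq2 1.42.0, and leaving out each library, each state or 4 libraries. Total counts of 6.38 to 15.6 M set the depth.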

Additional observations from a re-analysis of the deposited data

Results flagged for a closer look

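In 5 groups of 4 libraries, 64 measures were searched for a library whose gap to the nearest other exceeded 0.829 of the group's range, and 19 of 320 groups had one. Chance alone gives about 1 in 20. No cause was tested for any of them.

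Folic acid 10 d replicate 2 stood apart in 5 genes: Clu at 3100.0 CPM, Fabp5 at 71.34 CPM, Memo1 at 71.81 CPM, Stat5a at 32.17 CPM and Wscd1 at 11.25 CPM. On the same diet, Sema3d was at 10.84 CPM and the total at 12.71 M counts in 10 d replicate 1, and Mat2a at 486.1 CPM in 10 d replicate 3. Cpm was at 19.07 CPM in 3 d replicate 2. In intact mice on that diet, Ppp1r1b was at 45.58 CPM in replicate 1, Phlda1 at 174.1 CPM in replicate 2 and Nfil3 at 28.87 CPM in replicate 4.

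On the control diet, 10 d replicate 2 stood apart in Cnot8 at 77.87 CPM, Col6a3 at 444.5 CPM and Stat5a at 16.15 CPM. Srd5a2 was at 0.6818 CPM in control 10 d replicate 1 and Crabp1 at 29.53 CPM in control 10 d replicate 4. Nfil3 was at 81.06 CPM and Sbpl at 29.05 CPM in control intact replicate 3.

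The diet by state interaction of Fabp5 had an adjusted p of 0.011169 in edgeR's quasi-likelihood test, and it was not called without folic acid intact replicate 2 or without control 10 d replicate 2.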

How the results depend on the processing

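The mean diet effect gave 47 calls, and 45 with DESeq2 size factors, 48 with library totals (3 higher, 45 lower), 46 with TMM computed without Sbp and Sbpl, 49 without a filter, 47 with a stricter one, 53 in a non-robust fit, 47 in an additive model and 64 in limma-voom. DESeq2 called 83 genes (26 higher, 57 lower), all 47 among them. Without a state 33 (intact), 20 (3 d) and 29 (10 d) genes were called. Without single libraries the count ran from 37 (without control 3 d replicate 3) to 64 (without folic acid 10 d replicate 2). No called gene changed sign under any of these alternatives, and 35 of the 47 stayed called without any 1 library. Of the 47, 13 were called in every alternative and without any 1 library, while 17 lost the call without the intact state, 27 without 3 d and 20 without 10 d. Within states, DESeq2 called 23 genes in intact mice, 28 at 3 d, 45 at 10 d and 11 for the interaction. Without single libraries these counts were 3 to 48 in intact mice (without folic acid intact replicates 3 and 4), 2 to 14 at 3 d (without folic acid 3 d replicate 2 and folic acid 10 d replicate 2), 9 to 24 at 10 d (without control and folic acid 10 d replicate 1) and 0 to 3 for the interaction. Library totals gave 2 interaction calls. The difference in Sbp share was 2.54 to 3.944 points without single libraries, with exact permutation p from 0.01206 to 0.1013. Taken on the log2 scale with all libraries, it was 0.185 (exact permutation p = 0.212). The causes of these shifts were not tested.

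Replicate numbers are shared between groups, and the main fit does not pair them. Within states, same-numbered libraries of the diets deviated together little (11 pairs, r from -0.109 to 0.299, median 0.024, 3 over 0.1). Same-numbered libraries of different states were not compared, so a batch shared across states cannot be seen from these pairs. On the folic acid diet, replicate 3 had the fewest genes detected of its group in intact mice, at 3 d and at 10 d (12177, 12522 and 12620). On the control diet, replicate 3 had the fewest of its group at 3 d (12977), but not in intact mice or at 10 d (13456 and 13836). The pairs of replicate 3 had r of 0.170 in intact mice, 0.299 at 3 d and -0.101 at 10 d. With a replicate block 44 genes were called in the mean (43 shared), 11 in intact mice, 8 at 3 d, 13 at 10 d and 0 for the interaction, so that Fabp5 was not called there. In that edgeR fit 709 genes had an unadjusted interaction p under 0.05, and 667 without the block. With the block the Sbp share differed by 2.783 points (exact permutation p = 0.118). Over all genes tested the median 95% interval was 0.349 log2 units to each side, which limits the differences that could be seen.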
